A study of Mus musculus with 6 samples.

Results

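The RNA of 9 secreted cytokine genes was examined in cultured mouse CD8+ T cells: interferon gamma (*Ifng*), the interleukin genes *Il2*, *Il3*, *Il4*, *Il10*, *Il13*, *Il16*, and *Il24*, and *Csf2*, which encodes GM-CSF. They are 9 of the 57126 genes in the deposited count table, taken by gene symbol. The cells came from lymph nodes and spleens of OT-I mice, whose transgenic T cell receptor recognizes the ovalbumin peptide SIINFEKL, and were expanded with nano-aAPCs, iron oxide nanoparticles that carry this peptide on its MHC molecule together with anti-CD28. TEff cells (3 samples) were grown with IL-2 as the sole added cytokine. TRM-like cells (3 samples), a model of tissue resident memory T cells, were grown with TGF-β and IL-15 besides IL-2. All were harvested on day 6 without restimulation, while still in the medium with nano-aAPCs, so the values are levels during expansion and not after a further trigger. The sources do not say which samples came from separate mice or cultures, so every p-value below measures only the spread between these samples.

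A T cell transcribes most of these genes in bursts after its receptor is engaged, when NFAT, AP-1, and NF-κB enter the promoters, and proteins that bind the mRNA then limit how long it lasts. IFN-γ and GM-CSF act on macrophages and other myeloid cells, IL-2 drives T cell growth, IL-4 and IL-13 are the classical type 2 cytokines, IL-3 supports basophils, mast cells, and progenitors, and IL-10 restrains inflammation. IL-16 stands apart, because its precursor is stored in resting T cells and cleaved to release a ligand of CD4.

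Coordinates are on GRCm39. *Ifng* (ENSMUSG00000055170) lies on chr10:118276951-118281797 (+ strand), *Il2* (ENSMUSG00000027720) on chr3:37174672-37180108 (− strand), and *Il16* (ENSMUSG00000001741) on chr7:83292016-83395370 (− strand). *Il10* (ENSMUSG00000016529) lies on chr1:130947581-130952711 (+ strand), and *Il24* (ENSMUSG00000026420) on chr1:130809811-130815191 (− strand). The other 4 genes share chromosome 11 and the − strand in 2 pairs. *Il4* (ENSMUSG00000000869, chr11:53493809-53509496) and *Il13* (ENSMUSG00000020383, chr11:53522151-53525529) are 12655 bases apart, and *Csf2* (ENSMUSG00000018916, chr11:54138097-54140493) and *Il3* (ENSMUSG00000018914, chr11:54156129-54158103) are 15636 bases apart.

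The 300 bases before the start of the canonical transcript are shown for the genes the results turn on: the 2 effector cytokines with the most reads, *Il2*, *Il13*, which was counted only in TRM-like samples, and *Il16*, which held most of the reads. Capitals mark GGAAA on either strand (TTTCC where it lies on the other), the core that NFAT proteins bind. The windows are chr10:118276651-118276950 for *Ifng*, chr3:37180109-37180408 for *Il2*, chr11:54140494-54140793 for *Csf2*, chr11:53525530-53525829 for *Il13*, and chr7:83384732-83385031 for *Il16*, each on the strand of its gene and overlapping no annotated exon.
Ifng: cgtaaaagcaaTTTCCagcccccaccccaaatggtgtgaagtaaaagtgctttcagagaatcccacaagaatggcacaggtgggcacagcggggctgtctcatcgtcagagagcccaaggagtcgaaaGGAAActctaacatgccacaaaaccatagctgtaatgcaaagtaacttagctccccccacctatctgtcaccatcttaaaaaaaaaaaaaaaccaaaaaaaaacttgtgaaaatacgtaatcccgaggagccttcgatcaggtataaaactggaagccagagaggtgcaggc
Il2: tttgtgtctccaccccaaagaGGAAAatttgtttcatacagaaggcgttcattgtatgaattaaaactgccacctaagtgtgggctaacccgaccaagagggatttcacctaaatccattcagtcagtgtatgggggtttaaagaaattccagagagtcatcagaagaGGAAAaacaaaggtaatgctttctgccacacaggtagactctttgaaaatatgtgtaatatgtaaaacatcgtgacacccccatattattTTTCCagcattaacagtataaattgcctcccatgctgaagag
Csf2: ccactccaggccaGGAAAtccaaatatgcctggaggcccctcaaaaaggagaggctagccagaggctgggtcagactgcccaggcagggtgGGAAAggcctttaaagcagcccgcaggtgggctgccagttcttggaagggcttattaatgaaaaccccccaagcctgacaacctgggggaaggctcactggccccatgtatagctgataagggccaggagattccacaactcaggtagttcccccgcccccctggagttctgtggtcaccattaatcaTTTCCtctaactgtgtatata
Il13: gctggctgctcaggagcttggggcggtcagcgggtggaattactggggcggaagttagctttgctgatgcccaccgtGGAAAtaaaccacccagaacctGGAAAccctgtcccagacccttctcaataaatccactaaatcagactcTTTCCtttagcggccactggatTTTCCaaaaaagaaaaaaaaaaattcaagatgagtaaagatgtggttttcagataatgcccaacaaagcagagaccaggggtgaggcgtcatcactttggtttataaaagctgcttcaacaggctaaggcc
Il16: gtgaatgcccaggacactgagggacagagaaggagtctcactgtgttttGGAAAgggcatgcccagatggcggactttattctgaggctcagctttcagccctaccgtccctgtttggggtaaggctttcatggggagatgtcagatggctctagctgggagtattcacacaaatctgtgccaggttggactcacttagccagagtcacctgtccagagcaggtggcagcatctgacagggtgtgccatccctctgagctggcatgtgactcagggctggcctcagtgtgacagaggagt
GGAAA was found 4 times in the *Il13* window, 3 times each in the *Il2* and *Csf2* windows, 2 times in the *Ifng* window, and 1 time in the *Il16* window. All 9 genes held it at least 1 time, as did 65.1% of 21770 protein-coding promoters of the same length, and 6 of 9 held it at least 2 times, against 29.8% of promoters. The TATA box letters TATAAA lay 25 bases before the start in *Ifng*, 21 in *Il2*, and 24 in both *Il10* and *Il13*, which makes 4 of 9 genes against 14.2% of promoters. The AP-1 letters TGANTCA were found in *Il16* alone, 28 bases before the start of its canonical transcript, and in 7.38% of promoters. That *Il16* window lies inside the annotated gene, which extends to chr7:83395370. The STAT letters TTCNNNGAA were found in 3 of 9 genes and 9.20% of promoters, and the SMAD letters CAGAC in 4 of 9 and 47.2%. Both strands were searched, and TTCNNNGAA can share bases with GGAAA. *Il16* and *Csf2* had the highest GC content of the 9 windows, at 55.0%, against a median of 52.3% over all promoters. The matches describe letters and not sites in use.

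The reads counted on genes numbered 18319013 to 21960760 in TEff samples and 21178756 to 23622621 in TRM-like samples. TRM-like replicates 1 and 2 stood apart from the rest in that they had reads on many genes that T cells do not use. Of 1547 olfactory and vomeronasal receptor genes, taken as silent, 956 and 1014 had a read in these 2 samples, against 46 to 55 in the 3 TEff samples and 49 in TRM-like replicate 3. Their level was 0.652 and 0.662 reads per kb in TRM-like replicates 1 and 2 and 0.0689 to 0.113 in the other 4. TRM-like replicate 3 in turn differed from replicates 1 and 2 in expressed genes, with a chi-square per gene of 96.3 and 112, against 7.26 between replicates 1 and 2. It lay nearer to TEff replicates 1, 2, and 3, at 41.9, 82.4, and 37.4. TEff replicate 2 also stood apart, at 26.1 and 25.4 from TEff replicates 1 and 3, which were 3.73 apart. To TRM-like replicates 1 and 2 it was nearer, at 54.3 and 68.9, than TEff replicate 1 (79.9 and 93.4) or 3 (74.8 and 86.0). Where a member's result changed with 1 of these samples left out, both values are given below. The label of CD8+ T cells fitted the markers, since the summed CPM (the usual depth-scaled read count, here on library sizes adjusted by edgeR's TMM) of 8 T cell genes (*Cd3d*, *Cd8a*, *Lck*, and others) was 2616 to 2796 in TEff and 3101 to 4290 in TRM-like samples, and *Cd4* had 0 to 2 reads. Marker sums were 17.4 to 32.3 and 4.33 to 16.9 CPM for natural killer and innate lymphoid cells, 5.94 to 6.78 and 7.29 to 10.9 for B cells, and 4.71 to 6.48 and 2.86 to 10.7 for myeloid cells, in TEff and TRM-like samples. They were 35.9 to 41.5 and 18.4 to 26.0 CPM for CD4+ helper or regulatory T cells, nearly all from *Zbtb7b*, which had 366 to 795 reads in each sample.

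TEff and TRM-like cells held little RNA of any of the 9 genes but *Il16*. *Il16* took 13112 of the 13828 reads on the 9 genes, or 94.8%. *Ifng*, *Il2*, *Il10*, *Il16*, and *Csf2* had reads in all 6 samples, whereas *Il3*, *Il4*, *Il13*, and *Il24* had none in any TEff sample. Compared per kb of exon, the order of the mean levels over the 6 samples was *Il16* at 19.4 CPM per kb, *Csf2* at 2.56, *Ifng* at 2.15, *Il2* at 0.370, *Il10* at 0.245, *Il13* at 0.0745, *Il4* at 0.0230, *Il3* at 0.0116, and *Il24* at 0.00525. On this scale *Il16* stood above 82.0% of the tested protein-coding genes, *Csf2* above 40.9%, *Ifng* above 38.7%, and *Il2* above 25.2%. The values of *Csf2* and *Ifng* overlapped, as did those of *Il2* and *Il10*, so their order is not fixed by these samples, while *Il16* lay above every other member in each sample.

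**Figure D1:**
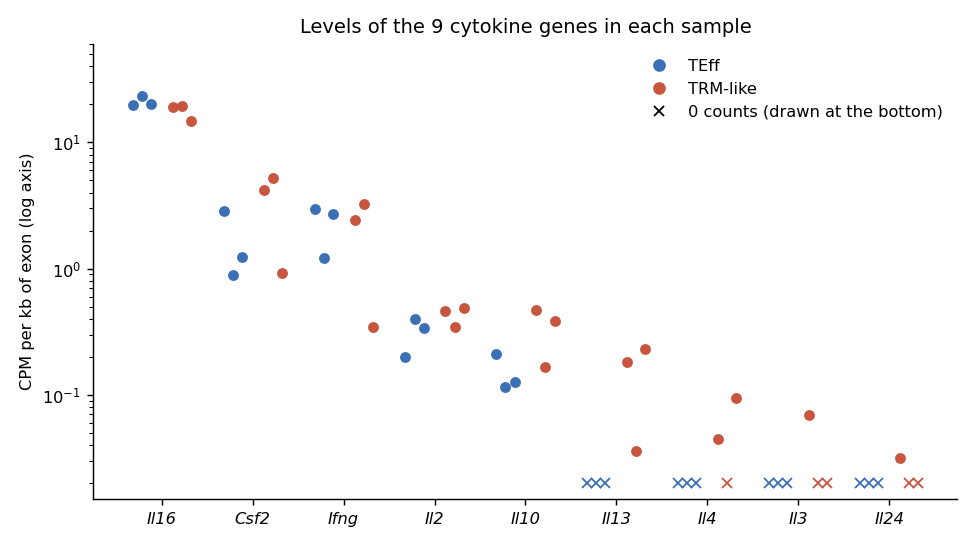
CPM per kb of exon (log axis) of the 9 cytokine genes in each of the 3 TEff (blue) and 3 TRM-like (red) samples, with samples at 0 reads drawn as crosses at the bottom. *Il16* sits above all other genes in each sample, and *Il13*, *Il4*, *Il3*, and *Il24* are at 0 in every TEff sample.

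None of the 9 genes passed the test between the groups. Of the 9, 6 had at least 1 count in at least 3 samples and were tested with edgeR's quasi-likelihood test, and *Il3*, *Il4*, and *Il24* fell below this filter. A gene passed when its adjusted p was below 0.05 and its log2 fold change exceeded 0.58 in either direction, which 3.01% of the 26154 genes tested did (1.52% higher and 1.48% lower in TRM-like cells). At an unadjusted p below 0.05 the count was 1 of 6, *Il13*, against 14.8% of all genes. DESeq2 and limma-voom called 0 of the same 6 as well, though DESeq2 gave *Il13* no adjusted p. The fitted log2 fold change, TRM-like against TEff, was above 0 for 4 and below 0 for 2 of the 6, with a median of 0.75 against 0.02 over all genes tested. *Il13* entered the test only through its TRM-like samples, so its positive sign was fixed by the filter. The tally and the median include it, so neither shows a shift of these genes as a set.

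*Ifng* did not separate the groups. The 3 TEff samples held 78, 29, and 59 reads, and the 3 TRM-like samples 67, 90, and 9. The highest and the lowest value of all were both TRM-like, so the groups overlapped fully. In CPM the mean was 2.76 ± 1.13 (SD, n = 3) in TEff and 2.42 ± 1.81 (SD, n = 3) in TRM-like cells. The log2 fold change was −0.19 (SE 0.62, 95% interval −1.60 to 1.22, edgeR adjusted p = 0.927), an interval that leaves room for a large difference either way. The sign rested on single samples. Without TRM-like replicate 3 the log2 fold change was 0.30 (adjusted p = 0.562), and it was also above 0, at 0.05, without TEff replicate 1. No fit that left out 1 sample brought *Ifng* past the threshold (adjusted p = 0.562 to 0.993). The 9 reads of that sample have a 95% Poisson interval of 4.12 to 17.1, below the 19.4 to 41.6 of the lowest TEff sample. Such intervals cover counting error only, since reads without molecular identifiers are not independent molecules. Of 1295 exon bases of *Ifng* in a later annotation than the one counted, 336 (25.9%) also belong to *Gm49751* on the same strand. *Gm49751* held 21, 21, and 15 reads in TEff and 25, 28, and 1 in TRM-like samples. The counts used 1208 exon bases of *Ifng*. The sources do not state how reads on bases shared by 2 genes were counted, so their effect on the *Ifng* counts is not known.

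*Csf2* had more reads in 2 of the 3 TRM-like samples than in any TEff sample, without passing the test. It held 50, 14, and 18 reads in TEff samples and 77, 96, and 16 in TRM-like samples. TRM-like replicates 1 and 2 stood above all others, whereas TRM-like replicate 3 lay between the lowest TEff samples. The mean was 1.33 ± 0.840 CPM (SD, n = 3) in TEff and 2.76 ± 1.80 CPM (SD, n = 3) in TRM-like cells, a log2 fold change of 1.04 (SE 0.61, 95% interval −0.35 to 2.43, edgeR adjusted p = 0.508). Without TRM-like replicate 3 the gene passed, with a log2 fold change of 1.46 (adjusted p = 0.0112), in a comparison in which 14.0% of genes did. It did not pass without TRM-like replicate 1 (0.88, adjusted p = 0.779) or 2 (0.61, adjusted p = 0.895), nor without any TEff sample, where the log2 fold change was 0.74 to 1.71, the highest without TEff replicate 1 (adjusted p = 0.467). With no filter on low counts it passed at 1.03 (adjusted p = 0.0360, 4.42% of genes called), and the adjusted p over all settings ran from 0.0112 to 1.00. Its pair on chromosome 11, *Il3*, held 1 read, in TRM-like replicate 1, and 0 in the other 5 samples.

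Within a sample, *Csf2* and *Ifng* can be set against each other regardless of library size. The TEff samples had 0.641, 0.483, and 0.305 *Csf2* reads per *Ifng* read, and the TRM-like samples 1.15, 1.07, and 1.78. Each TRM-like sample lay above each TEff sample, TRM-like replicate 3 included, although both of its genes were low. The mean log2 ratio was −1.13 ± 0.54 (SD, n = 3) in TEff and 0.37 ± 0.40 (SD, n = 3) in TRM-like samples, a difference of 1.51. Per base of exon the ratio was 0.461 to 0.968 in TEff and 1.61 to 2.68 in TRM-like samples. This pair was chosen after its values were seen, so the separation is a description and carries no test.

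**Figure D2:**
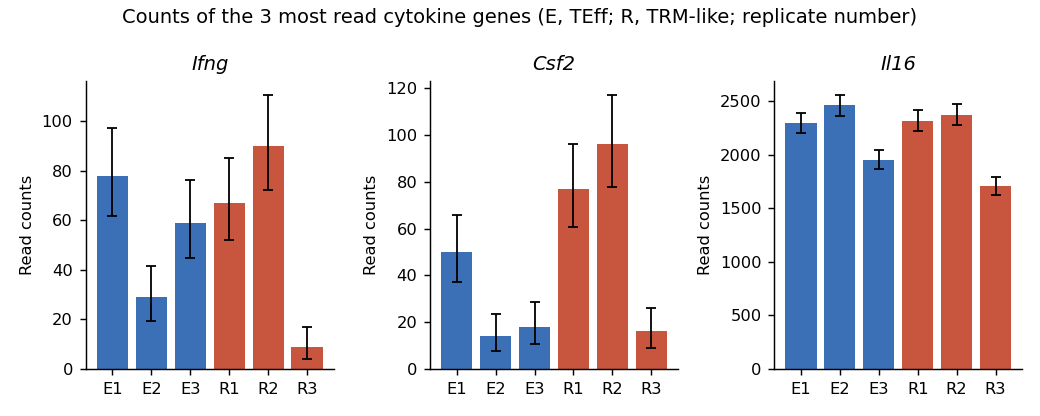
Read counts (linear axes from 0) of *Ifng*, *Csf2*, and *Il16* in TEff samples E1 to E3 (blue) and TRM-like samples R1 to R3 (red), with 95% Poisson intervals as bars. R3 has 9 reads of *Ifng* and 16 of *Csf2*, against 67 to 90 and 77 to 96 in R1 and R2, while *Il16* stays between 1708 and 2462 in all 6.

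*Il2*, the growth factor that was also added to both cultures, was near the lower end of what could be read. TEff samples held 5, 9, and 7 reads and TRM-like samples 12, 9, and 12. The groups met at 9 reads and overlapped in CPM, with means of 0.357 ± 0.116 (SD, n = 3) and 0.490 ± 0.0851 (SD, n = 3). The log2 fold change was 0.46 (SE 0.43, 95% interval −0.52 to 1.44, edgeR adjusted p = 0.691). *Il21*, the nearest gene on the far side and a related T cell cytokine, had 3 reads in TRM-like replicate 1 and 0 elsewhere. In that sample silent genes held 0.652 reads per kb, and *Il21* has 3160 exon bases, so these reads are not set apart from that level.

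The type 2 cytokine *Il13* was read only in TRM-like samples, at very low counts. It had 0 reads in each TEff sample and 5, 1, and 6 in TRM-like samples. *Il13* and *Il16* were the 2 of 6 tested members whose groups did not overlap, against 20.3% of all genes tested. With 0 TEff reads, *Il13* could meet the filter only with a read in every TRM-like sample. Its separation was therefore fixed by the filter, which leaves *Il16*, treated below, as the case that was free to overlap. *Il13* held 12 reads in sum. It did not pass (edgeR adjusted p = 0.175), and over the settings that tested it the adjusted p was 0.0939 to 0.388. At the level of silent genes, the length of *Il13* would have drawn 0.786 and 0.798 reads in TRM-like replicates 1 and 2 and 0.105 in replicate 3. The 95% Poisson intervals of the 5 and 6 reads in replicates 1 and 3, 1.62 to 11.7 and 2.20 to 13.1, lie above that level, and that of the single read in replicate 2, 0.0253 to 5.57, includes it. The level is a mean over 1547 uneven genes, and in TRM-like replicate 3 its 463 reads lay on 49 of them. The intervals therefore do not show that these reads exceed what a single silent gene can hold.

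*Il4*, the other type 2 cytokine, had 1, 0, and 2 reads in TRM-like samples and 0 in each TEff sample. A count of 0 allows up to 3 reads, or 0.137 to 0.166 CPM in a TEff sample, so absence of these transcripts is not shown. Of 1227 exon bases of *Il4* in a later annotation than the one counted, 179 lie opposite exons of *Kif3a*. *Kif3a* is a kinesin gene with 51 to 124 reads per sample. The counts used 983 exon bases of *Il4*, and the sources do not state whether strand was used in counting. *Rad50*, the DNA repair gene on the other side of *Il13*, had 1043 to 2020 reads and did not pass (log2 fold change −0.21, adjusted p = 0.768). Basophils and mast cells are other known sources of these cytokines. The summed CPM of 8 of their markers was 5.08 to 6.73 in TEff samples and 57.1, 52.1, and 6.69 in TRM-like samples, nearly all from *Kit*, which had 1266, 1136, and 129 reads in TRM-like samples. *Kit*, with 68 to 90 reads in TEff samples, was the only 1 of the 8 to pass (log2 fold change 3.27, edgeR adjusted p = 0.0377). *Il1rl1*, the only 1 of 5 natural killer and innate lymphoid markers to pass, was lower in TRM-like samples. It fell from 37, 16, and 33 reads to 6, 4, and 4 (log2 fold change −2.76, edgeR adjusted p = 0.0130). In the other marker lists, the T cell gene *Cd8a* passed as higher in TRM-like samples (log2 fold change 1.14, edgeR adjusted p = 0.00219). *Zbtb7b*, of the CD4+ T cell list, passed as lower (log2 fold change −0.82, edgeR adjusted p = 0.0335), and no B cell or myeloid marker passed. Over all genes tested, 3.01% passed. *Fcer1a*, the high affinity IgE receptor chain, had 0 reads in all 6 samples, *Mcpt8* at most 4, and *Prss34* at most 1, while *Hdc*, the enzyme that makes histamine, had 12 to 30 and *Cpa3*, a mast cell protease, 4 to 18 in each sample. The part of such cells in the *Il13* and *Il4* reads was not tested.

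*Il10* was higher on average in TRM-like cells, with overlap. TEff samples held 6, 3, and 3 reads and TRM-like samples 14, 5, and 11. TRM-like replicate 2 fell below TEff replicate 1, while the other 2 TRM-like samples were above every TEff sample. The means were 0.197 ± 0.0671 CPM (SD, n = 3) and 0.445 ± 0.203 CPM (SD, n = 3), a log2 fold change of 1.13 (SE 0.55, 95% interval −0.12 to 2.39, edgeR adjusted p = 0.397). The silent level for its length was under 1 read in every sample, below these counts. As for *Il13*, that level is a mean over uneven genes. The counts therefore do not show that these reads exceed what a single silent gene can hold. *Il24*, another member of the IL-10 family, on the same chromosome, had 1 read in TRM-like replicate 1 and none elsewhere. The IL-10 relatives beside them were as sparse, with 1, 1, and 0 reads of *Il19* and 4, 1, and 0 of *Il20* in TRM-like samples and none in TEff samples. The reads of *Il24*, *Il19*, and *Il20* thus lay only in TRM-like replicates 1 and 2, where the level of silent genes was raised. *Mapkapk2*, the kinase gene that follows *Il10*, had 2294 to 3016 reads (log2 fold change −0.03, edgeR adjusted p = 0.935).

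**Figure D3:**
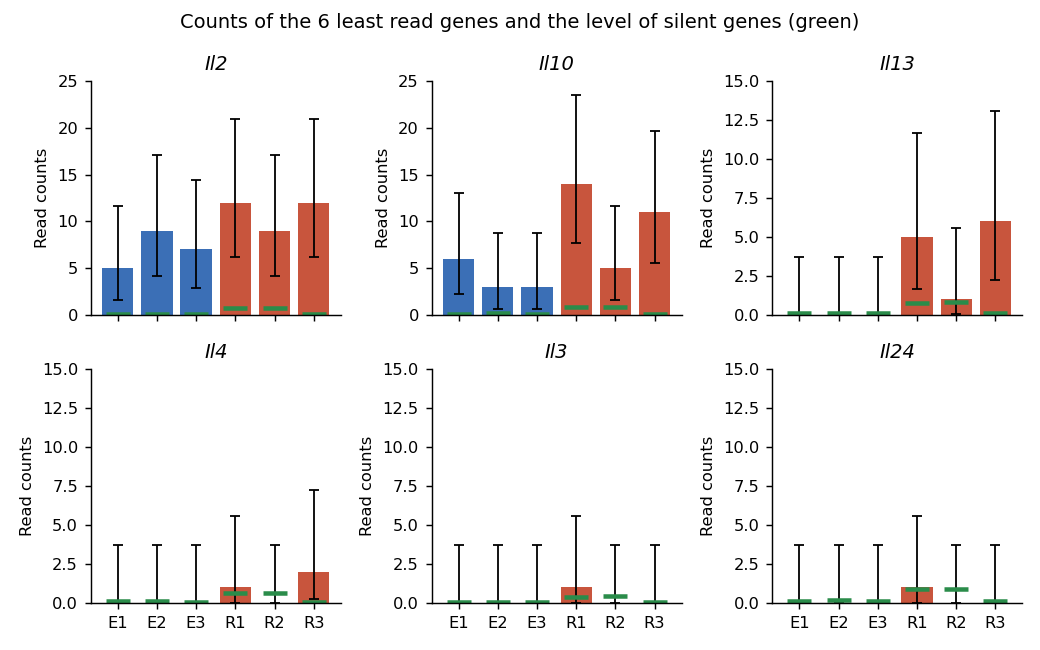
Read counts of *Il2*, *Il10*, *Il13*, *Il4*, *Il3*, and *Il24* in TEff samples E1 to E3 (blue) and TRM-like samples R1 to R3 (red), with 95% Poisson intervals as black bars and the reads expected at the level of silent genes as green dashes. *Il2* and *Il10* lie above the green dash in all samples, *Il13* has 5 and 6 reads in R1 and R3 and 1 read, close to the dash, in R2, and the few reads of *Il3* and *Il24* are in R1, where the dash is raised.

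*Il16*, the abundant member, was slightly lower in TRM-like cells. TEff samples held 2293, 2462, and 1954 reads and TRM-like samples 2319, 2376, and 1708, which scale to 105, 125, and 108 CPM and to 101, 104, and 78.8 CPM. In CPM the groups did not overlap, with TRM-like samples lower as for 9.71% of genes tested, but the nearest samples, at 105 and 104, almost touched. The means were 112 ± 10.6 CPM (SD, n = 3) and 94.6 ± 13.8 CPM (SD, n = 3), and the log2 fold change of −0.25 did not pass (SE 0.15, 95% interval −0.59 to 0.09, edgeR adjusted p = 0.518). This interval is the narrowest of the 6 and holds no decrease beyond 0.59 on the log2 scale. Of 8548 exon bases of *Il16* in a later annotation than the one counted, 1394 lie opposite exons of *Stard5*. *Stard5* is a lipid transfer gene with 238 to 339 reads per sample. The counts used 5332 exon bases of *Il16*, so the overlap of the counted exons may differ. *Cd4*, whose protein is the IL-16 receptor, had 0 to 2 reads per sample, and *Cd9*, a tetraspanin also named as a receptor of IL-16, had 402 to 466.

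Several genes followed the pattern of *Il16* over the 6 samples closely. The root mean square difference of centred log2 CPM was 0.0256 for *Harbi1*, 0.0334 for *Lmbr1l*, and 0.0455 for *Abca7*, out of 10880 protein-coding genes that reached 10 counts in each of the samples. The 2 effector cytokines held only 9 to 96 reads per sample. The measure makes no allowance for counting error, so its size cannot be compared between them and *Il16*. For *Ifng* the nearest genes included *Ccl3* (0.406), a chemokine of activated T cells, and *Rgs16* (0.472). For *Csf2* they were *Oas1a* (0.382), *Mtus2* (0.414), and *Nmnat2* (0.428). *Ccl3* had 76 to 89 reads in TEff samples and 92, 95, and 15 in TRM-like samples, the same drop in TRM-like replicate 3 as *Ifng*. These values describe likeness over 6 samples and carry no test.

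The receptor chains of these cytokines gave 2 calls, both in the receptor of IFN-γ and in opposite directions. Of 19 receptor genes 15 were tested, 1 was higher and 1 lower in TRM-like cells, and the median log2 fold change was −0.17. Over all genes tested, 1.52% were higher and 1.48% lower. *Ifngr2*, the signaling chain, had 16, 18, and 9 reads in TEff and 186, 208, and 229 in TRM-like samples. It rose 12.8-fold, from 0.713 ± 0.208 to 9.25 ± 1.23 CPM (SD, n = 3 each), with a log2 fold change of 3.68 (SE 0.26, edgeR adjusted p = 0.000209). *Ifngr1*, the ligand binding chain, had 11174, 13540, and 10079 reads in TEff and 6390, 7282, and 5618 in TRM-like samples. It fell from 584 ± 90.4 to 285 ± 30.1 CPM (SD, n = 3 each), a log2 fold change of −1.03 (SE 0.16, edgeR adjusted p = 0.0102). For both chains TRM-like replicate 3 lay with replicates 1 and 2, unlike for *Ifng* itself. The *Ifngr1* call was lost without TEff replicate 3 (adjusted p = 0.0710) and without TRM-like replicate 1 (adjusted p = 0.0520), within a range of 4.75e-07 to 0.127 over all settings.

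**Figure D4:**
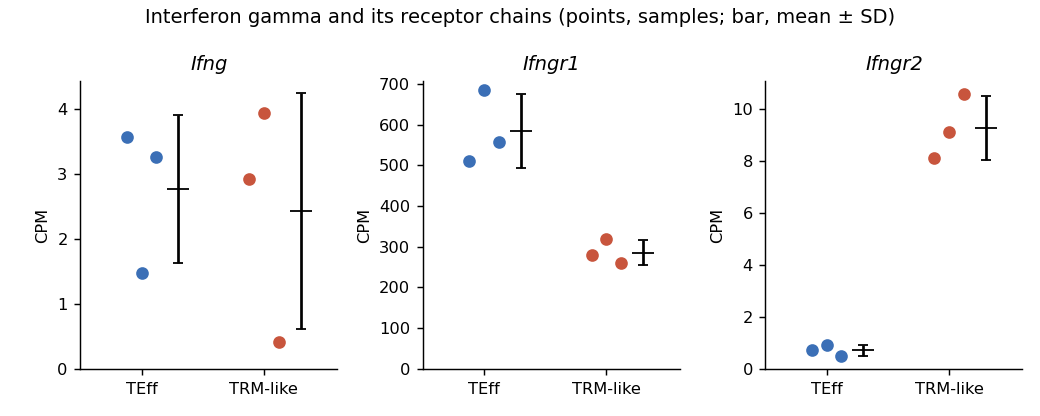
CPM (linear axes from 0) of *Ifng*, *Ifngr1*, and *Ifngr2* in the 3 TEff (blue) and 3 TRM-like (red) samples, with mean ± SD as black bars. The groups overlap for *Ifng*, while *Ifngr1* is lower (285 against 584 CPM) and *Ifngr2* higher (9.25 against 0.713 CPM) in all TRM-like samples.

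The chains for IL-2 were abundant and did not pass in the main comparison. *Il2rb*, shared by the IL-2 and IL-15 receptors, stood at 1179 ± 52.1 and 1150 ± 228 CPM (SD, n = 3 each) in TEff and TRM-like cells, a log2 fold change of −0.04 (adjusted p = 0.954). *Il2rg*, the common gamma chain, gave −0.11 (adjusted p = 0.792). *Il2ra*, the chain that raises affinity for IL-2, had 2782 and 2746 reads in TRM-like replicates 1 and 2 but 5871 in replicate 3, close to the 4216 to 5935 of TEff samples (log2 fold change −0.64, adjusted p = 0.394), and it passed as lower without TRM-like replicate 3 and with no filter. *Il4ra*, used by both IL-4 and IL-13, stood at 217 ± 44.5 and 171 ± 11.6 CPM (SD, n = 3 each; adjusted p = 0.377). *Il13ra1* had 2 reads in all and *Il13ra2* none. The GM-CSF chain *Csf2ra* had 58 to 81 reads in TEff and 67 to 118 in TRM-like samples, while its signaling partner *Csf2rb* had 0 to 7 in any sample, with reads that may be shared with the near-identical *Csf2rb2*. *Il10ra* had 705 to 1113 reads per sample and its partner *Il10rb* 2 to 11.

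Among 32 transcription factors known to act at these genes or downstream of the added cytokines, 2 were higher and 2 lower in TRM-like cells (median log2 fold change 0.02). The share that passed over all genes tested was 3.01%. *Maf*, known to drive *Il4* and *Il10* in T cells, had 25 to 32 reads in TEff and 294, 282, and 134 in TRM-like samples, a log2 fold change of 2.87 (SE 0.31, edgeR adjusted p = 0.00188). *Jun*, an AP-1 subunit, rose by 1.86 on the log2 scale (SE 0.23, adjusted p = 0.00376), from 17.6 ± 6.03 to 63.6 ± 9.27 CPM (SD, n = 3 each). *Eomes*, a T-box factor that promotes *Ifng*, fell from 196, 255, and 227 reads to 73, 69, and 40, a log2 fold change of −2.09 (SE 0.25, adjusted p = 0.00308). *Smad3*, which relays TGF-β signals, fell from 252 to 450 reads in TEff to 33, 32, and 84 in TRM-like samples, a log2 fold change of −2.98 (SE 0.39, adjusted p = 0.00448). All 4 kept their call under each setting in which they were tested. *Runx3* did not pass in the main comparison (log2 fold change 1.08, edgeR adjusted p = 0.150). It passed as higher with DESeq2, with no filter, and without TRM-like replicate 3. *Tbx21*, the T-box partner of *Eomes* at *Ifng*, did not pass, at 55.8 ± 7.47 and 46.7 ± 11.9 CPM (SD, n = 3 each; log2 fold change −0.26, adjusted p = 0.625). The most abundant factors that did not pass were *Ikzf1* (log2 fold change −0.43, adjusted p = 0.172), *Nfkb1* (0.08, adjusted p = 0.838), *Nfatc3* (−0.35, adjusted p = 0.335), and *Stat6* (0.01, adjusted p = 0.974).

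Of 11 genes for proteins that bind cytokine mRNAs, all were tested, 0 were higher and 1 was lower in TRM-like cells (median log2 fold change −0.11). Among all genes tested, 3.01% passed. *Zc3h12d*, an endonuclease that degrades inflammatory mRNAs, had 892, 1031, and 715 reads in TEff and 574, 587, and 364 in TRM-like samples, a log2 fold change of −0.97 (SE 0.19, edgeR adjusted p = 0.0306). It lost its call without any of the 3 TEff samples or without TRM-like replicate 1 or 2, at adjusted p of 0.0625 to 0.134, and over all settings the adjusted p was 7.68e-07 to 0.316. *Arid5a*, a protein that protects such mRNAs, did not pass, at 173 ± 9.41 and 209 ± 23.5 CPM (SD, n = 3 each; adjusted p = 0.404). Nor did the decay factors *Zfp36l2* (log2 fold change −0.24, adjusted p = 0.764), *Khsrp* (−0.25, adjusted p = 0.554), and *Rc3h1* (−0.25, adjusted p = 0.501).

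Most other secreted cytokines were also at low levels. Of 31 further interleukin and growth factor genes, 25 were below 1 CPM in every sample and 18 could be tested, of which 0 were higher and 1 was lower in TRM-like cells (median log2 fold change 0.24). Over all genes tested the share that passed was 3.01%. *Il18*, a cytokine that promotes IFN-γ release, fell from 46, 47, and 48 reads to 11, 15, and 8, a log2 fold change of −2.23 (SE 0.31, edgeR adjusted p = 0.00592), and without TEff replicate 3 its adjusted p was 0.0502, the highest over all settings. *Csf1*, the macrophage growth factor, had 340, 573, and 254 reads in TEff and 100, 122, and 9 in TRM-like samples, without passing (log2 fold change −2.53, adjusted p = 0.0783). *Il12a*, a subunit of IL-12 and IL-35, had 13 to 15 reads in TEff samples and 129, 124, and 16 in TRM-like samples (log2 fold change 2.47, adjusted p = 0.0959). Both *Csf1* and *Il12a* passed without TRM-like replicate 3 and with no filter, and *Il12a* also with DESeq2. TRM-like replicate 3 was thus the lowest TRM-like sample for *Ifng*, *Csf2*, *Csf1*, and *Il12a*, and the highest for *Osm*, with 793 reads against 247 and 277, and for *Lif*, with 77 against 15 and 16.

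**Figure D5:**
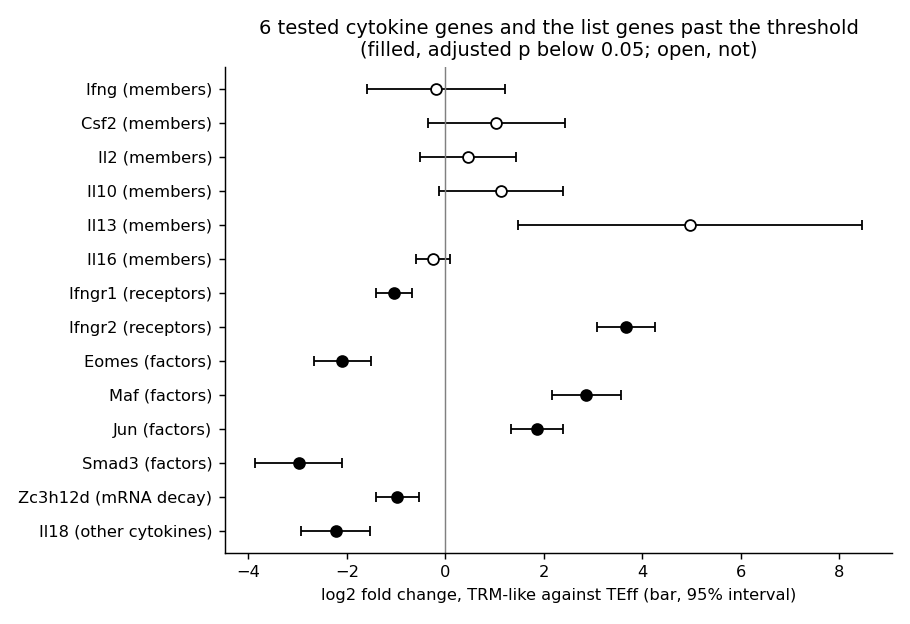
Log2 fold change, TRM-like against TEff, with 95% intervals, for the 6 tested cytokine genes and for the receptor, transcription factor, mRNA decay, and other cytokine genes that passed the test (filled points, adjusted p below 0.05). The intervals of *Ifng*, *Csf2*, *Il2*, *Il10*, and *Il16* include 0, and the fitted value of *Il13*, with 0 TEff reads, depends on the prior count and is not a measured fold.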

How the data were processed

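RNA from 6 samples, 3 TEff and 3 TRM-like, was sequenced from stranded total RNA libraries. The authors trimmed reads with Cutadapt 4.8, aligned and counted them with Rsubread on GRCm39, and deposited raw counts per gene for 57126 genes, unnormalized. DESeq2 1.40.2 is named in the submitters' processing notes. Strand setting and the handling of reads on several places are not given in the sources used here.

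Symbols, exons, and the printed sequences came from the GENCODE annotation and genome of GRCm39, a later release in which 56620 of the genes were found. Counts were tested with edgeR 4.0.16 (TMM, glmQLFit, glmQLFTest) in R 4.3.3 over the 26154 genes that had 1 or more counts in 3 or more samples, with Benjamini-Hochberg adjustment. The threshold, adjusted p below 0.05 and absolute log2 fold change above 0.58, follows the study. The depth of 18319013 to 23622621 reads sets a floor of 3 counts, 0.131 to 0.166 CPM in a sample. The edgeR step was tested on simulated data.

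Alternatives were DESeq2 1.42.0, limma-voom 3.58.1, DESeq2 size factors, library totals, no filter, filterByExpr, glmTreat with a fold of 1.5, a minimum of 10 counts per sample, adjusted p without the fold limit, the replicate number as a block, and each sample left out. TRM-like replicate 3 alone, and counts less the level of silent genes, were added after seeing the data. The study removed a batch for its plots without naming it, and none was modelled.

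Members, gene lists, and tests were chosen with earlier results of these data known. The rule for named genes took the 9 members, the list genes past the threshold with up to 4 further genes of highest CPM per list, neighbouring and overlapping genes, and the 3 genes of nearest pattern for members with a median of at least 10 counts. Not every gene it selects is described, and 1 is not reported here. *Tbx21*, *Runx3*, *Il1rl1*, the other receptor chains, *Lif*, and the pair of *Csf2* and *Ifng* were chosen after their values were seen.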

Additional observations from a re-analysis of the deposited data

How the results depend on the processing

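None of the 9 cytokine genes passed under the reported setting, and 1, *Csf2*, passed under no filter and under the replicate block (log2 fold change 0.95, adjusted p = 0.0468). TRM-like replicate 3 alone against TEff also gave 1, *Ifng*, but this arm of 1 sample was chosen after its low count was seen and takes its spread from the TEff samples, so the call carries no weight. Leaving out each sample gave 0 to 1. *Ifng*, at −0.72 to 0.30 with samples left out, turned to 0.05 without TEff replicate 1 and 0.30 without TRM-like replicate 3, and *Csf2* to −0.87 with TRM-like replicate 3 alone. Receptor calls went from 2 to 1 with at least 10 counts in every sample, which does not test *Ifngr2*, and to 1 under glmTreat, with 1 to 3 over the left-out samples, and *Il2ra* was a further call, making 3, with no filter, the replicate block, and without TRM-like replicate 3. Transcription factor calls were 4 to 5 over the left-out samples, and 5 with DESeq2, no filter, and the replicate block. *Runx3* was the further call under each of these settings and without TRM-like replicate 3. mRNA decay calls went from 1 to 0 under glmTreat, with 0 to 2 over the left-out samples. Other cytokine calls went from 1 to 2 with DESeq2, 4 with no filter, 0 with at least 10 counts in every sample, 4 with the replicate block (*Csf1*, *Il12a*, and *Lif* besides *Il18*, as with no filter), and 3 with TRM-like replicate 3 alone, with 0 to 5 over the left-out samples. All genes past the threshold numbered 786, and 1256 with DESeq2, 1868 with no filter, 339 under glmTreat, 2034 with the replicate block, and 263 to 3579 over the left-out samples, the most without TRM-like replicate 3. The cause of these moves was not tested.

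Replicate numbers name samples and do not pair them by the labels. The deviations of same-numbered samples from their group means correlated at −0.29, 0.31, and 0.39 over 14822 genes, and the highest value, 0.52, was between TEff replicate 2 and TRM-like replicate 1, so not every sample correlated best with its own number. *Il13* could not be tested with any TRM-like sample left out, with at least 10 counts, with filterByExpr, or after subtracting the level of silent genes, and DESeq2 gave it no adjusted p. At 0 to 14 reads per sample, the depth limits what can be said of *Il2*, *Il3*, *Il4*, *Il10*, *Il13*, and *Il24*.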

Other observations

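The reads of the silent receptor genes in TRM-like replicates 1 and 2 did not come from a few genes alone. With the 77 most read of them left out, their level was 0.415 and 0.451 reads per kb in these 2 samples and 0 in the other 4. *Pax5*, a B cell factor, had 14, 10, and 0 reads in TRM-like samples and 0 in TEff samples, and *Lyz2*, a myeloid lysozyme gene, had 0, 14, and 0.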
